A study of Homo sapiens with 8 samples.

Results

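The regions described here are the CpG-poor stretches inside introns of protein-coding genes that carried an ATAC-seq peak in every library of the study. ATAC-seq uses the transposase Tn5 to cut and tag DNA that is not packed away in nucleosomes, and a peak is a stretch with more cuts than its surroundings. The 8 peak lists were merged wherever peaks overlapped or touched, which gave 96872 regions, of which 36895 had a peak in all 8 libraries and are called shared regions. A shared region was kept if it was under 2000 bp wide, had its midpoint in an intron of a protein-coding gene, lay more than 2000 bp from any start site (TSS) of a protein-coding or lncRNA gene, and had a CpG observed/expected ratio below 0.6 around its midpoint. These limits left 7660 intronic regions. They were chosen by the presence of a peak in all 8 lists, width, position and CpG ratio, so those values are given as a description only. All 8 libraries came from HEK293T, an established line derived from human embryonic kidney that expresses the large T antigen of SV40. In 4 libraries the genotype label names an H2A-lentivector, and in the other 4 a lentivector for H2A(E92K), called E92K below, in which a glutamate of the nucleosome's acidic patch is replaced by a lysine. The labels give no treatment and no promoter for either vector. They record no change to the cells' own H2A genes, and do not say whether the cells were a clone or a pool or whether replicates were separate cultures. The p-values therefore reflect only how far these samples spread, which may be technical.

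Introns of long genes hold many enhancers, short stretches where transcription factors bind and raise transcription from a promoter that can be far away in the DNA. Others are insulators, where the zinc finger protein CTCF binds and halts the loop-forming cohesin complex. Enhancers are usually poor in CpG and differ from one cell type to the next, whereas promoters and many CTCF sites are open in most cells. GATA factors bind short AGATAA-like sequences in enhancers. The acidic patch of the nucleosome is the surface that many remodellers and other chromatin proteins contact.

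The sequences below are shown because they let a reader see the letters for CTCF and for GATA, 2 of the motifs that the intronic regions carried at different rates according to the direction of the difference between groups. All are given on the plus strand of hg38, read from the reference, with the matching letters in capitals. The first 4 hold a 12-letter core of the CTCF site, which is the 13-letter core searched at first without its last letter, chosen after the values of the first letters were seen. NRG2, at chr5:139968903-139968963, encodes a ligand of ERBB receptors and its region was among the 10 strongest. PDCD10, at chr3:167684553-167684613, encodes a protein mutated in cerebral cavernous malformations. CCDC3 lies at chr10:13074981-13075041. WDR4, at chr21:42850937-42850997, encodes a partner of the tRNA m7G methyltransferase. The regions of PDCD10, CCDC3 and WDR4 are among the 10 with the smallest p and a lower value in E92K, of which none passed the adjusted threshold. Those of PDCD10 and WDR4 also hold a GATA match elsewhere in the region.
NRG2: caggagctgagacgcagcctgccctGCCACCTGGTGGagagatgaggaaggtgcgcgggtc
PDCD10: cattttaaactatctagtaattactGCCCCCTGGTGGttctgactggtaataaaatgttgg
CCDC3: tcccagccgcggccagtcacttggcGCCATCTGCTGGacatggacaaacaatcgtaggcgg
WDR4: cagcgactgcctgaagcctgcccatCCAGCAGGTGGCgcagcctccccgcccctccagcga

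The next 5 hold AGATAA, written as TTATCT where the match is on the minus strand, and come from regions among the 10 with the smallest p and a higher value in E92K, of which none passed either. TYW1, at chr7:67101252-67101312, encodes an enzyme of wybutosine synthesis on tRNA. NEDD4L, at chr18:58143537-58143597, encodes a ubiquitin ligase that acts on membrane channels. DGKB, at chr7:14688096-14688156, encodes a diacylglycerol kinase. SVOPL lies at chr7:138666465-138666525. SEMA3D, at chr7:85071149-85071209, encodes a secreted guidance cue of the semaphorin family. A match is a run of letters and does not show binding.
TYW1: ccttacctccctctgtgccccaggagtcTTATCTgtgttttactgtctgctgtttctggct
NEDD4L: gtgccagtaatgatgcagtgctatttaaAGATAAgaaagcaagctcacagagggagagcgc
DGKB: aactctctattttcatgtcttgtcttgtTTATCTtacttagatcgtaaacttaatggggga
SVOPL: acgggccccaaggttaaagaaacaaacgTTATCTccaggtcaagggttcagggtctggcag
SEMA3D: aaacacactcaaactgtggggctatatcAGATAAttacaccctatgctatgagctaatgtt

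The 8 lists held 55527 to 62044 peaks. The smallest background behind the deposited folds of a library was 2.52 to 2.93 fragments in the H2A libraries and 2.23 to 2.68 in the E92K libraries. It was recovered within 0.001 from the deposited fold and p of a regular subset of summits in each list. By this value depth was on the whole lower in E92K, with overlapping ranges. Median recovered pileups at the intronic regions were 30 to 37 fragments in the H2A libraries and 30 to 35 in the E92K libraries. A promoter was called open if a peak lay within 1000 bp of a TSS. Promoters of 14 of 14 marker genes of HEK293T were open in all 8 libraries. Of the marker genes of other cell types, 2 of 12 hematopoietic, 2 of 8 hepatocyte, 1 of 8 endothelial and 2 of 8 fibroblast promoters were open in all 8. The compact HEK293T marker genes hosted none of the intronic regions.

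A peak in 1 library or in all 8 was more common than any number between. Of 31335 intronic regions that met the same limits in any number of libraries, 10419 (33.3%) had a peak in 1 library. A peak in all 8 was found at 7660 (24.4%). Between these, 3570, 2351 and 1923 had a peak in 2, 3 and 4 libraries. Each number from 5 to 7 held 1676 to 2057. Width rose with the number of libraries, from a median of 316 bp in 1 library to 905.5 bp in 8, and the median fold enrichment, the authors' own value for the pileup at a summit over its local background, rose from 3.26 to 6.01. A region that joins peaks of more libraries can only become wider, so width is in part made by the merge. When each library had to cover at least 50% of the region, 3893 of the regions were left.

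**Figure D1:**
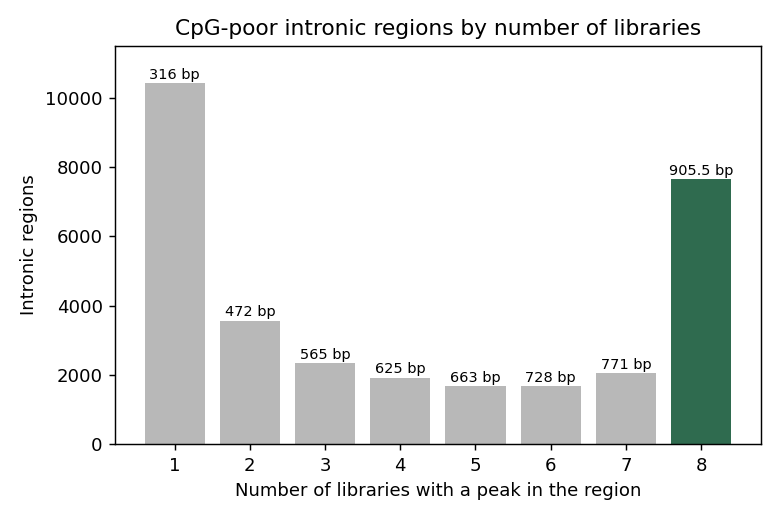
Number of CpG-poor intronic regions (vertical axis) by the number of libraries with a peak in the region (horizontal axis), with the median width above each bar. The bar for all 8 libraries, in green, holds the 7660 regions described here, and the bar for 1 library holds 10419.

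The 7660 regions were 329 to 1993 bp wide. Their median GC content was 45.3%, their median CpG ratio 0.231 and their median distance to the nearest TSS 13931 bp, with a largest distance of 542947 bp. The median gap from one intronic region to the next was 48.7 kb, and 300 (3.92%) had another within 5 kb. A single summit in every library was found at 4268 regions. On the width limit, FMNL2 (1993 bp) and ADGRL2 (1990 bp) were kept, with mean H2A folds of 3.75 and 7.28, and KRT86 and a gene without a symbol (both 2002 bp) were left out, with 4.45 and 5.90. On the TSS distance, DRAM1 (2001 bp) and HOXC4 (2008 bp) were kept and LEPR (1998 bp) and AIFM2 (1997 bp) were left out, with mean H2A folds of 6.94, 3.23, 4.51 and 4.75. On the CpG ratio, LAMC3 and MDFIC2 were kept with mean H2A folds of 8.70 and 11.0, and MCF2L and FNDC1 were left out with 4.56 and 5.60.

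Intronic regions were weaker than most shared regions. Strength was ranked within each list, as the percentile of a region's fold among the 36895 shared regions. The median percentile of the intronic regions was 36.4 to 37.5 in the H2A libraries and 37.5 to 38.1 in the E92K libraries. The 9474 intergenic shared regions that met the other limits had medians of 43.2 to 43.8 and 43.9 to 44.3. Shared regions within 1000 bp of a coding TSS, 14071 in number, had medians of 63.9 to 64.6 and 63.0 to 64.2. Every library gave the same order of the 3 sets. The intronic regions held few of the strongest shared regions. They lay above the 75th percentile in all 8 libraries in 283 cases (3.69%), against 13.3% of shared regions, and below the 25th in all 8 in 1031 cases (13.5%), against 10.5%. Library pairs ranked the intronic regions with a Spearman correlation of 0.782 to 0.838 within groups and 0.767 to 0.814 between groups, over 7660 regions that share libraries and peak calling.

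**Figure D2:**
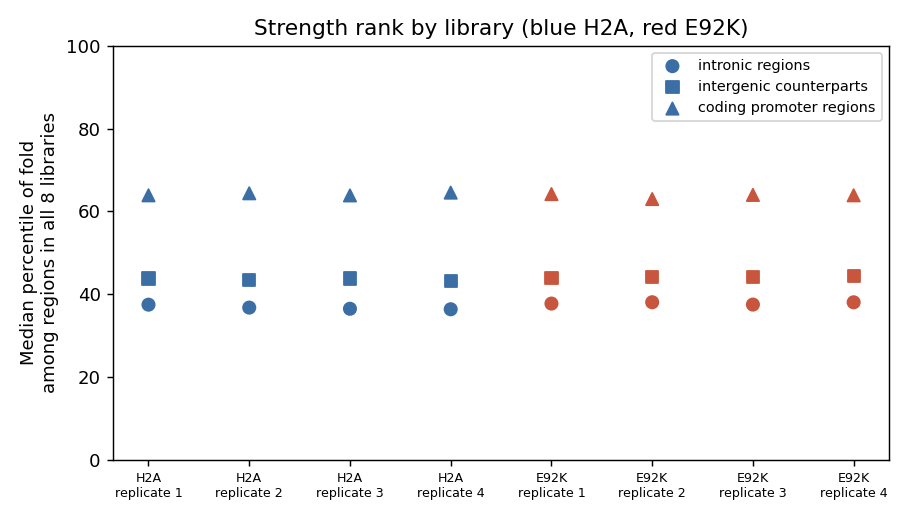
Median percentile of fold among shared regions (vertical axis) in each library (horizontal axis) for intronic regions, intergenic counterparts and coding promoter regions, with H2A in blue and E92K in red. The intronic medians sit between 36.4 and 38.1 in every library, below both other sets.

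The 10 strongest intronic regions, by the lowest of their 8 percentiles, were all among the top shared regions in every library. The first lay in ENSG00000289768 at chr1:161565760-161566759, in a stretch that may have near-identical copies, so reads there could come from more than 1 place. Its folds were 15.6, 14.9, 15.0 and 16.8 in H2A and 14.2, 13.05, 12.9 and 17.5 in E92K, and the groups overlapped. MCOLN2, an endolysosomal cation channel gene, carried a region in intron 7 at chr1:84944501-84945595. Its folds were 14.3, 13.8, 13.9 and 14.1 in H2A and 12.3, 13.5, 13.8 and 13.4 in E92K. The groups overlapped only at their edges, with the highest E92K library beside the lowest H2A library. The NRG2 region, in intron 1 at chr5:139968507-139969267, holds the CTCF letters printed above. Its folds were 14.7, 14.9, 13.5 and 14.0 in H2A and 12.3, 13.5, 13.1 and 12.8 in E92K, a mean of 14.3 ± 0.675 against 12.9 ± 0.537 (SD, n = 4 each). The lowest H2A library and the highest E92K library were alike there.

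The others of the 10 lay in CAMK2D (a calcium/calmodulin-dependent kinase), SYT14 (a synaptotagmin), MRPS22 (a protein of the mitochondrial ribosome), ARHGAP24 (a GTPase-activating protein for RAC), ETV1 (an ETS transcription factor), MLKL (the effector of necroptosis) and SIL1 (a nucleotide exchange factor of an endoplasmic reticulum chaperone). In MRPS22, ARHGAP24 and MLKL all 4 E92K values lay below all 4 H2A values. Such an order was found at 2.23% of all intronic regions and 2.52% of shared regions. The MLKL region, at chr16:74695640-74696512, had folds of 12.9, 13.3, 14.6 and 14.5 in H2A and 11.9, 11.7, 11.8 and 12.6 in E92K. The ARHGAP24 region, at chr4:85796532-85797446, had folds of 13.7, 13.9, 14.3 and 14.8 in H2A and 11.8, 13.2, 12.2 and 13.1 in E92K. Neither passed the test used below, with limma adjusted p of 0.271 and 0.311. For the ETV1 region the 2 groups had mean folds of 12.5 ± 0.241 and 12.4 ± 0.544 (SD, n = 4 each).

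The regions were spread over many hosts. Of 19970 protein-coding genes, 4246 (21.3%) hosted at least 1, and 2581 of these hosted exactly 1. At the other end 266 genes hosted 5 or more, and 38 hosted 10 or more and together held 479 of the regions (6.25%). A midpoint lay in several overlapping genes in 328 cases. Hosts were long genes, with a median length over regions of 187 kb against 27.5 kb for all coding genes. Among genes of 500 kb or more, 85.1% hosted a region, against 2.18% of genes under 20 kb, while the number of regions per 100 kb of gene was 0.492 and 0.265, and highest, at 0.673, for genes of 100 to 200 kb.

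The host had a promoter peak in all 8 libraries for 6404 regions (83.6%) and in none for 886 (11.6%), and 66.8% of all coding genes had one in all 8. In genes of 200 to 500 kb, 75.2% of the 985 genes with a promoter peak in all 8 libraries hosted a region, against 55.0% of the 120 genes with none. In genes of 500 kb or more the shares were 91.2% of 260 and 57.9% of 38. In genes of 20 to 50 kb the order was the other way, with 13.8% of 3465 and 16.3% of 1081. Of 6572 regions inside an intron of the host's canonical transcript, 1749 (26.6%) lay in the first intron, which held 23.2% of intronic bases. Regions were spread along the gene body, with 24.6% in the first 25% of the host's length and 23.4% in the last 25%.

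PCDH9, a protocadherin gene for neuronal cell adhesion on chr13:66302834-67230445, hosted the most with 32 regions. None lay in intron 1 and 15 lay in intron 2. They were weak, with a median percentile of 17.1 and 20 of 32 below the 25th. One stood out, at chr13:66834226-66835806, with a mean percentile of 93.1. Its folds were 11.0, 10.8, 10.2 and 11.0 in H2A and 11.4, 11.7, 11.9 and 12.7 in E92K. All 4 E92K values were above all 4 H2A values there, and limma on the fold gave an adjusted p of 0.463. Chromosome 13 had the lowest median percentile of any chromosome, 27.1 over 229 regions.

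Among the other hosts with most regions, AUTS2, which encodes a partner of a Polycomb complex, GMDS, which encodes GDP-mannose dehydratase, the enzyme that starts GDP-fucose synthesis, GPC5, a glypican of the cell surface, and GSE1 hosted 19 each. In GSE1, 18 of the 19 lay outside the introns of the canonical transcript, in introns of longer transcripts. GALNTL6, of the GalNAc transferase family, and LRP1B, of the LDL receptor family, hosted 15 each. BBS9, a part of the BBSome that carries cargo to cilia, and PDE4D, a cyclic AMP phosphodiesterase, hosted 14 each. All of these genes had an open promoter in all 8 libraries. The counts depend on how much of a region each library must cover. With at least 50% covered in each, PCDH9 kept 21 and AUTS2 and GSE1 14 each, but GMDS 10, BBS9 9, PDE4D 8, LRP1B 6, GPC5 5 and GALNTL6 4. With peaks limited to q-values of 1e-05 or less, GMDS and GPC5 each held 11 and GALNTL6 7.

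By density, among genes with 5 or more regions, the first 5 were SYTL3, an effector of RAB27 (5.22 per 100 kb), ENSG00000258989 (4.66), TOM1L2 (4.65), TBC1D4, a RAB GTPase-activating protein of glucose transporter traffic (4.53), and SETD7, a lysine methyltransferase (4.51). PCDH9 had 3.45 and GSE1 3.75. SYTL3 and ENSG00000258989 had no promoter peak in any library, and their 6 regions each had median percentiles of 19.5 and 27.5. In TBC1D4 7 of 9 regions lay in intron 1.

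**Figure D3:**
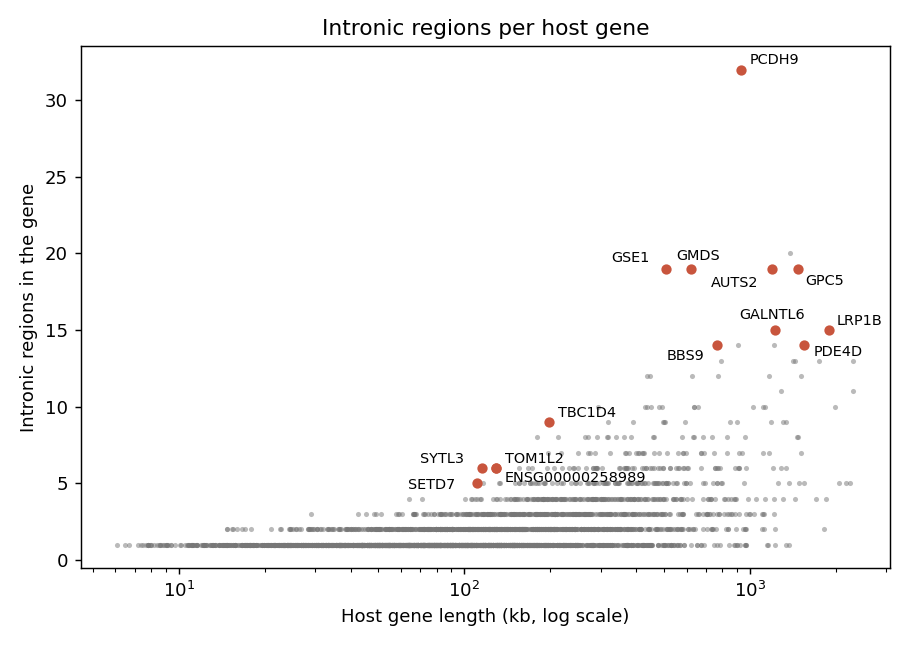
Number of intronic regions (vertical axis) against gene length in kb on a log scale (horizontal axis), each point 1 host gene, with the genes named in the text in red. PCDH9 stands above all other genes with 32 regions, and the densest genes are between 110.8 and 198.7 kb long.

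Most of the listed developmental factor genes hosted a region, against 21.3% of all coding genes. Of 26 zinc finger and bHLH developmental factor genes, 23 hosted 97 regions, led by FOXP1 with 12 and MECOM with 8. Of 11 nuclear factor I and TEAD genes, 9 hosted 31 regions, or 1.46 per 100 kb against 0.582 over all coding genes, led by TEAD1 with 8 and NFIA with 7. Of 20 TALE and homeobox genes, 11 hosted 38 regions, led by ZFHX3 with 10 and PBX3 with 6. These listed genes are longer than most (medians of 370, 155 and 185 kb), and length moved with hosting in all coding genes. Among all coding genes, 54.3% of those of 100 to 200 kb hosted a region, and 72.1% of those of 200 to 500 kb. Of 37 chromatin regulator genes, with a median length of 152 kb, 18 (48.6%) hosted 56 regions. ARID1B, a BAF remodeller subunit, led with 12, and JARID2 had 7.

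Signalling and adhesion genes varied in density. Of 31 TGF-beta and BMP pathway genes, 16 hosted 42 regions (1.17 per 100 kb), with 5 each in the receptor genes BMPR1A and BMPR1B. Of 31 WNT genes, 14 hosted 34 (1.09 per 100 kb), with 6 each in ROR2 and TLE4. Of 28 glypican and heparan sulfate genes, 20 hosted 73 (1.09 per 100 kb), with GPC3 second at 10. Receptor tyrosine kinase genes hosted 46 in 17 of 34, led by IGF1R with 8 and ERBB4 with 7. The cadherin and synaptic adhesion list, with a median length of 680 kb, had the most regions, 134 in 32 of 50 genes, but 0.352 per 100 kb, led by LRP1B and CNTNAP2 (13). Among the others, actin and focal adhesion genes hosted in 29 of 42 (CTNNA2 8, DST 6), phosphodiesterase genes in 13 of 17 (PDE10A 10), integrin genes in 10 of 24 (ITGA1 4, ITGA11 2) and nephron genes in 9 of 26 (CUBN and MAGI2 4 each). Markers of other cell types hosted 14 regions, of which VWF, with no promoter peak in any library, had 4. No region of any list passed the strength test below. The median difference between E92K and H2A over a list ran from -0.05 (integrins) to 0.06 (TALE and homeobox genes) on the log2 scale without the marker lists, against 0.01 over all intronic regions.

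No intronic region differed in strength between H2A and E92K beyond the test's threshold. The comparison asks whether these regions, all with a peak in every library, ranked differently between the groups. The rule left out regions without a peak in every library, so a gain or loss of a peak could not be seen. For each region the value was the log2 fold after quantile normalisation over the shared regions, which keeps only its rank within each list, and limma was fitted over all 36895. A change in openness common to the shared regions would not show on this scale. At an adjusted p below 0.05, limma called 0 regions higher (0% of shared regions) and 0 lower (0%) in E92K, and the smallest adjusted p was 0.188. At an unadjusted p below 0.05, 597 intronic regions were higher (7.79%, against 4.97% of shared regions) and 369 lower (4.82%, against 4.12%). All 4 E92K values lay above all 4 H2A values at 291 regions (3.80%, against 2.77%) and below at 171 (2.23%, against 2.52%). The intergenic counterparts were close to the intronic regions, with 3.38% above and 2.10% below. At an unadjusted limma p below 0.05 these counterparts gave 6.87% higher and 5.27% lower. Over the intronic regions the median difference was 0.01 on the log2 scale and 90% of differences lay between -0.28 and 0.34, with a median standard error of 0.13. A lower fold in bulk cells can come from fewer cells with the region open or fewer cuts per cell, which cannot be told apart.

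The deposited significance gave calls where the fold gave none. When the deposited −log10 p of each region, normalised the same way, was used in place of the fold, limma called 83 intronic regions higher (1.08%, against 0.588% of shared regions) and 8 lower (0.104%, against 0.0867%) in E92K. The smallest limma adjusted p of these intronic calls, 0.000189, was at the PCDH9 region at chr13:66834226-66835806, which missed the threshold on the fold (0.463). All 83 and all 8 had the same sign on the fold. Fold and p of a summit rest on the same pileup and background, so the shared sign is no separate support. The p of a peak also depends on depth, which was on the whole lower in E92K with overlapping ranges (backgrounds above), and the part of depth was not tested. Percentile ranks, median-centred folds, the highest fold of a region, a filter on weak regions and each left-out library gave 0 calls.

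Of the regions higher in E92K, the 10 with the smallest p are named here, and none passed (limma adjusted p of 0.188 to 0.198). In all 10 the groups did not overlap, since regions with small p values are those whose groups lie apart. GALNTL6, intron 10, at chr4:172962261-172963335, had folds of 4.82, 4.85, 4.49 and 5.00 in H2A and 7.71, 7.13, 7.54 and 8.23 in E92K, a difference of 0.63 ± 0.10 (SE). TMTC2, which encodes an O-mannosyltransferase, had in intron 2 at chr12:82861477-82862375 folds of 5.61, 5.25, 6.18 and 5.62 against 8.08, 8.50, 8.30 and 9.72. Each E92K library exceeded each H2A library by over 1 fold unit in both.

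RSRC1, a gene of splicing, gave the largest difference of the 10 in intron 7 at chr3:158495076-158496391, 0.81 ± 0.14 (SE). Its folds were 2.66, 3.16, 3.30 and 4.14 in H2A and 6.67, 5.99, 5.28 and 5.77 in E92K. The H2A libraries were low and the groups were far apart. The NEDD4L region in intron 1 at chr18:58143116-58143854 had folds of 4.61, 5.74, 5.04 and 4.29 in H2A and 8.39, 8.22, 7.20 and 8.45 in E92K. The TYW1 region had 5.65, 5.96, 4.53 and 6.62 against 9.67, 8.70, 8.79 and 9.29. The SEMA3D region had 4.99, 5.46, 5.79 and 5.45 against 7.91, 7.35, 7.89 and 8.12, the DGKB region 5.48, 5.33, 5.68 and 6.01 against 7.74, 9.23, 8.89 and 7.81, and the SVOPL region 2.96, 3.10, 2.84 and 3.19 against 4.91, 4.43, 4.52 and 4.71. FAM167A and GMDS complete the 10. On the −log10 p column 8 of the 10 passed, the exceptions being TYW1 and FAM167A, with adjusted p from 0.00211 (RSRC1) to 0.0342 (SVOPL) by limma.

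GMDS had 6 of its 19 regions with all E92K values above all H2A values, the most of any host, and none below, where 2.77% of shared regions lay above and 2.52% below. The named one, in intron 7 at chr6:1850329-1851236, had folds of 5.33, 5.42, 5.80 and 5.81 in H2A and 7.83, 7.62, 8.07 and 8.67 in E92K. A second in the same intron, at chr6:1786361-1787669, had 3.36, 3.67, 3.15 and 4.53 against 5.35, 5.85, 4.82 and 6.10. The other GMDS regions did not move as a block: 8 of 19 had a negative difference, the lowest at -0.46. ARID1B, CNTNAP2 and PCDH9 had 3 regions above each, of 12, 13 and 32, and CNTNAP2 had 1 below. In the other direction GALNT13, INPP5A and NAV2 had 2 each. These genes were picked after their values were seen.

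Of the regions lower in E92K, the 10 with the smallest p also missed the threshold (limma adjusted p of 0.188 to 0.246), and their groups did not overlap. ARHGAP12, a gene for a GTPase-activating protein, had in intron 3 at chr10:31862224-31862891 folds of 9.48, 10.8, 8.63 and 8.40 in H2A and 6.39, 6.08, 5.87 and 6.14 in E92K, a difference of -0.63 ± 0.10 (SE). PDCD10 gave the largest difference of the 10, in intron 8 at chr3:167684322-167685307, with 6.20, 6.55, 6.43 and 7.05 against 4.40, 5.38, 3.40 and 3.38, a difference of -0.73 ± 0.15 (SE). In PDCD10 the E92K libraries spread widely, with replicates 3 and 4 lowest. The CCDC3 region had 11.9, 10.8, 11.2 and 11.7 in H2A and 7.62, 9.45, 8.71 and 9.69 in E92K. QPRT, a gene of NAD synthesis, had 9.93, 10.9, 9.63 and 9.28 against 7.77, 7.80, 7.68 and 7.46, the tightest E92K values of the 10. WDR4 had 5.28, 7.04, 6.23 and 6.68 against 4.05, 3.98, 5.02 and 4.47. TMEM114, CPNE4, ASTN2 and TXLNG were also among the 10. On the −log10 p column ARHGAP12, PDCD10, WDR4 and TXLNG passed, with limma adjusted p of 0.0409, 0.0232, 0.0335 and 0.0464.

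**Figure D4:**
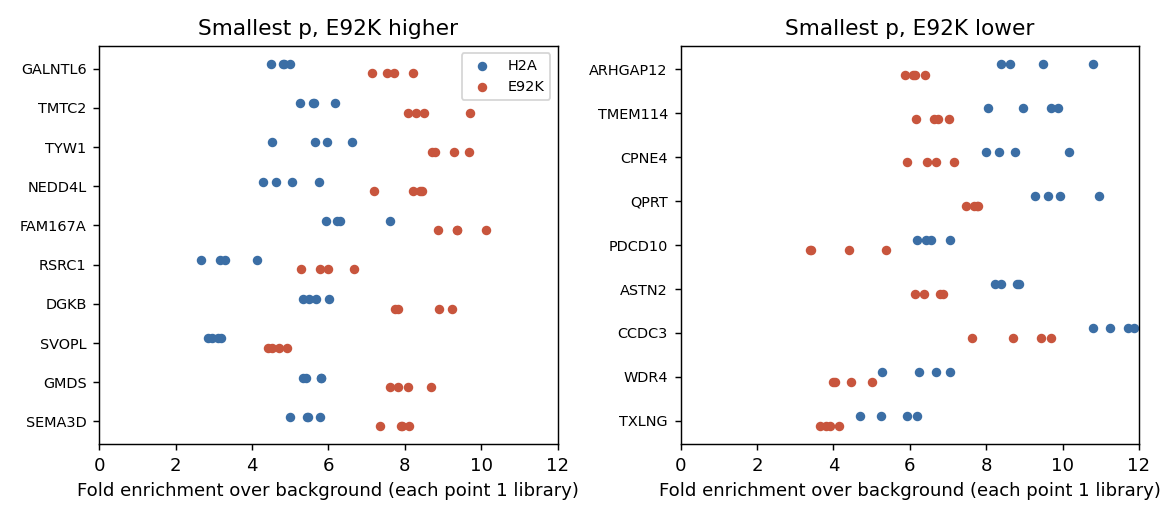
Fold enrichment (horizontal axis) in each library, for the named intronic regions with the smallest p in each direction (vertical axis, by host gene), with H2A in blue and E92K in red. Groups do not overlap in any row, as the choice of rows by p makes likely, and the left panel runs from about 3 to 10 and the right from about 3 to 12.

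Intronic regions with letters for CTCF ranked higher than those without. Consensus letters of 37 motifs were searched on both strands within 250 bp of the midpoint. The 13-letter CTCF core was in 783 regions (10.2%), against 11.1% of the intergenic counterparts, 1.81% of promoter regions, 6.65% of shared regions and 5.01% of all merged regions. It was in 1.88% of intronic regions seen in 1 library. Regions with it had a median percentile of 51.4, against 35.9 without, and the order was the same in each of the 8 libraries (50.2 to 54.6 against 33.9 to 36.7). The letters lay on the strand of the host gene in 346 regions, on the opposite strand in 435 and on both in 2. The 12-letter core was in 1377 regions (18%) and in 29.0% of the 283 regions above the 75th percentile in all 8 libraries.

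The AGATAA letters were in 2262 intronic regions (29.5%), against 27.9% of intergenic counterparts, 8.0% of promoter regions and 25.4% of all merged regions. Of intronic regions seen in 1 library, 30.1% held these letters. Regions with them were weaker, with a median percentile of 33.5 against 39.4, and had a lower median GC, 42.5%. The AP-1 letters TGANTCA were in 17.5%, against 17.4% of counterparts, 5.81% of promoter regions and 17.9% of intronic regions seen in 1 library. The forkhead letters TNTTTAC were in 29.4%, against 10.1% of promoter regions and 29.8% of intronic regions seen in 1 library. The SP letters GGGCGG were in 13%, against 77.7% of promoter regions and 7.64% of intronic regions seen in 1 library. These SP letters hold a CpG, which the rule limits.

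The 2 motifs went with opposite directions, described here without a test. Among regions with the CTCF core, 1.02% (8 regions) had all E92K values above all H2A values and 3.45% (27) all below. On the −log10 p column these counts were 5 and 42, given here without the counts over all intronic regions on that column. Among regions with AGATAA, 5.22% were above and 1.28% below on the fold. The figures for all intronic regions on the fold were 3.80% and 2.23%. Over all shared regions, intronic ones included, the CTCF core gave 1.22% above and 2.85% below, and AGATAA 4.43% and 1.86%. Put the other way, AGATAA was in 40.5% of the 291 regions above and 17.0% of the 171 below, and the CTCF core in 2.75% and 15.8%. The E-box letters CAGGTG were in 23% and 40.9%, and the forkhead letters in 34.7% and 25.7%. CAGGTG can lie inside the CTCF letters, as on the minus strand of the NRG2 sequence above. Its share without the CTCF core was not counted. With both motifs, 0 of 173 regions were above and 5 were below. AGATAA without the core gave 5.65% above and 1.15% below over 2089 regions, and neither motif 3.45% and 2.51% over 4788. Of the 83 regions called higher on the −log10 p column, 46 (55.4%) held AGATAA and 0 the CTCF core. Of the 8 called lower, 2 held AGATAA and 3 the CTCF core.

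Width moved with the direction. In the 25% narrowest intronic regions 1.82% had all E92K values above and 3.49% all below, and in the 25% widest 7.0% and 1.36%. Motifs went with width too, since the CTCF core was in 267 of the narrowest and 67 of the widest, and AGATAA in 452 and 738. Within the 4 width groups, from narrow to wide, regions with AGATAA gave 2.43%, 2.64%, 5.35% and 8.54% above, against 1.64%, 2.11%, 3.59% and 6.04% without. Regions with the CTCF core gave 4.12%, 4.12%, 1.65% and 2.99% below, against 3.39%, 2.49%, 1.33% and 1.30% without, and the 2.99% is 2 of 67 regions.

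GC content moved with the direction as well. The share of regions with all E92K values above fell from 5.63% in the 25% of regions with the lowest GC to 2.30% in the 25% with the highest. Within the 4 such groups, from low to high GC, regions with AGATAA gave 6.40%, 4.13%, 5.33% and 3.73%, against 5.01%, 3.51%, 2.87% and 2.09% without. Regions with the CTCF core gave 2.98%, 2.66%, 5.05% and 3.06% below, against 1.43%, 2.03%, 2.64% and 2.32% without. Within 4 groups of mean percentile, from weak to strong, regions with the CTCF core gave 8%, 5.62%, 1.63% and 2.90% below. The 8% is 4 of 50 regions. Those without the core gave 1.93%, 1.78%, 2.46% and 2.24%, so the order reversed in the third group. It also reversed in the third of 4 groups by TSS distance, with 1.66% against 2.31%. The part of width, GC, strength, TSS distance and depth in the split was not tested. SOX letters (AACAAAG) gave 4.93% above and 2.07% below, forkhead 4.49% and 1.96%, AP-1 4.10% and 1.72%, the interferon element 5.62% and 1.87%, and E-box CAGGTG 2.60% and 2.72%.

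**Figure D5:**
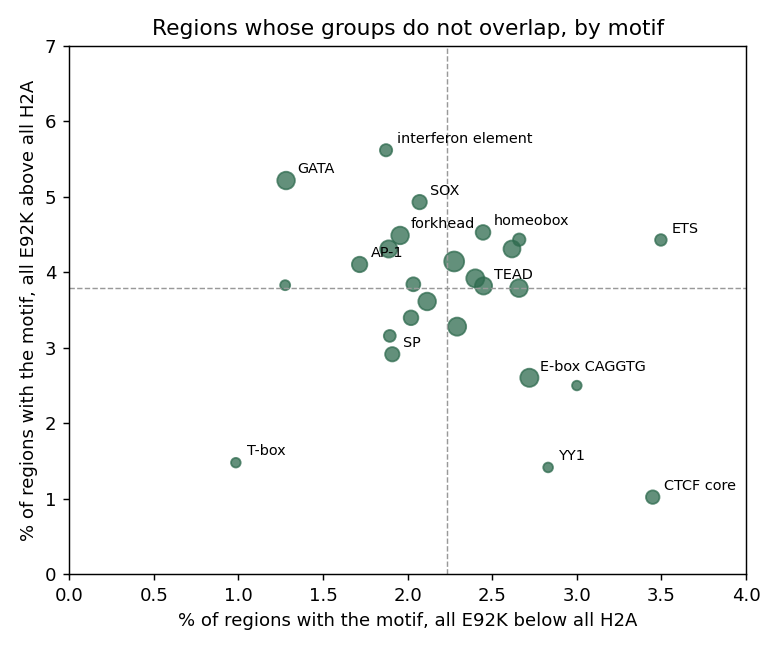
Percent of intronic regions with a motif whose 4 E92K values all lie above the 4 H2A values (vertical axis) against the percent with all below (horizontal axis), each point 1 motif found in at least 200 regions, with larger points for more regions and dashed lines for all intronic regions (3.80% and 2.23%). GATA lies at 5.22% above and 1.28% below, and the CTCF core at 1.02% and 3.45%.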

How the data were processed

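ATAC-seq peak lists of 8 HEK293T libraries, 4 H2A and 4 E92K by their titles, were analysed. The alignment was to hg38, per the labels, which name no aligner and no peak caller. Each deposited list has 10 columns in narrowPeak layout. The deposited fold column is a ratio of summit pileup to local background, with the same constant added to both. The deposited p and q columns are −log10 p-values and q-values. The smallest −log10 q was 2.00. The deposited score column was not used, and the other columns gave names and positions. Peaks were called per library.

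Peaks were merged, placed by midpoint and annotated with GENCODE version 44. The summit with the smallest p stood for a region. Strength was tested with limma 3.58.1 in R 4.3.3 (trend, Benjamini-Hochberg over 36895 shared regions, threshold 0.05), 4 against 4, without covariates, tested first on simulated data. Python 3.11.15, pandas 2.3.3, numpy 2.4.6 and pysam 0.24.0 did the rest. The regions, 19 gene lists and 37 motifs were chosen with earlier results of these data known. Named hosts were the 10 with most regions, the 5 densest with at least 5 and the first 2 of each list. Named regions were the 10 strongest by lowest percentile and, per direction, the 10 with the smallest p, since none passed. One host gene, 1 region and 1 gene list are not reported here. Gene lists, hosts and motifs are described without tests. Alternatives covered the scale, normalisation, column, summit, filters, limits of the rule, replicate block and each library left out.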

Additional observations from a re-analysis of the deposited data

Results flagged for a closer look

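Among 70 groups of 4 libraries checked for a value far from the others, 2 stood out, and chance gives about 1 in 20. In the MLKL region, one of the 10 strongest, E92K replicate 4 had a fold of 12.63, above the other E92K libraries at 11.7 to 11.9. In the SIL1 region, also one of the 10 strongest, E92K replicate 3 had a fold of 11.71, below the others at 13.2 to 13.5.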

How the results depend on the processing

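The −log10 p column in place of the fold raised the limma calls from 0 to 83 intronic regions higher and 8 lower in E92K, and to 217 and 32 over all shared regions. The replicate block, with numbers from the titles, gave 0 calls in either direction. Same-numbered libraries did not deviate together (correlations of -0.06 to 0.00), so the numbers were not taken as pairs. All other alternatives gave 0 calls, each left-out library included (0 to 0). The count of 7660 regions fell to 3893 when each library had to cover at least 50% of a region. It was 7801 to 8012 with 1 library left out, 7607 with exons of every gene, 6325 at 5000 bp from a TSS, 7352 and 7839 at CpG ratios of 0.5 and 0.7, and 5478 with a q of 1e-05 or less. The cause of the difference between the fold and the −log10 p columns was not tested. The share of intronic regions with E92K above H2A was 52.2%, 53.7% with median-centred folds and 48.0% on the −log10 p column, so its side of 50% depends on the column. Regions with the CTCF core and groups apart numbered 8 above and 27 below on the fold, and 5 and 42 on the −log10 p column. The balance of all intronic regions moved between these columns too (52.2% and 48.0% with E92K above). Without the weakest 25% of shared regions, 390 in place of 597 intronic regions were higher at an unadjusted p below 0.05, with fewer regions tested. Of the 20 regions named by direction, 0 changed sign in any refit, and the 10 strongest regions did so in 6 of 150 refits. The folds rest on median pileups of 30 to 37 fragments.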
